A study of Homo sapiens with 2 samples.

Results

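GAL and NPPB are the genes that encode the peptide hormones galanin and B-type natriuretic peptide (BNP). They were taken by symbol from the authors' deposited table of 2005 genes, of which they are 2. Both were chosen by their deposited levels, since each was already known to be higher in the knockdown library, so their own difference is given as a description without a test. The table compares 2 cultures of HES2, a widely used human embryonic stem cell line. Lentivirus brought either a scramble control or a hairpin that targets TFCP2L1, a transcription factor of pluripotent cells. Both cultures were infected, and for 3 passages both grew on 10% KSR with Activin A and FGF2, each at 10 ng/ml. Each group is 1 library of 1 cell line, the labels name no clone and no separate cultures, and no difference below has a replicate check.

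Galanin is a neuropeptide that is cut from a larger precursor together with a second peptide and acts on the G protein-coupled receptors GALR1, GALR2 and GALR3. Its gene is known for a high transcript level in undifferentiated human embryonic stem cells. BNP is cut from its precursor by proteases such as furin and corin, and it binds NPR1, a receptor that makes cyclic GMP. NPPB is best known from the heart, where stretch of the muscle raises it, and BNP and its precursor fragment are measured in blood as signs of heart failure.

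GAL (gene ID 51083, chromosome 11) was at 327 FPKM (reads scaled by gene length and by library size) in the scramble library and at 1455 FPKM with the hairpin against TFCP2L1. About 5847 and 25171 reads lay behind these levels, or 249 and 1109 RPM (reads scaled by library size alone). The level in the knockdown library was 4.45-fold that in the scramble library, with a 95% interval of 4.33 to 4.58. This interval, like all below, is an exact (Clopper-Pearson) interval that covers counting error only. Reads were inferred from the deposited values, in libraries of about 23450000 (scramble) and 22700000 (knockdown) reads. In bulk RNA, more cells that express a gene and more of its RNA per cell cannot be told apart.

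NPPB (gene ID 4879, chromosome 1) was listed at the floor of 0.01 FPKM in the scramble library, where no reads were inferred, and at 50.8 FPKM in the knockdown library. A floor of 3 reads is 0.200 FPKM for this gene, and the exact 95% Poisson interval of a count of 0 reaches 0.246 FPKM. The knockdown library held 740 reads of NPPB, or 32.6 RPM, with a counting interval of 47.3 to 54.7 FPKM. Set against that floor NPPB was 255-fold higher, and by the lower limit of the 95% interval of the ratio it was at least 207-fold higher. The targeted gene, TFCP2L1, was at 3.19 FPKM with the scramble and 0.33 FPKM with the hairpin, 9.70-fold lower (interval 7.56 to 12.6), in the direction that its label gives.

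**Figure D1:**
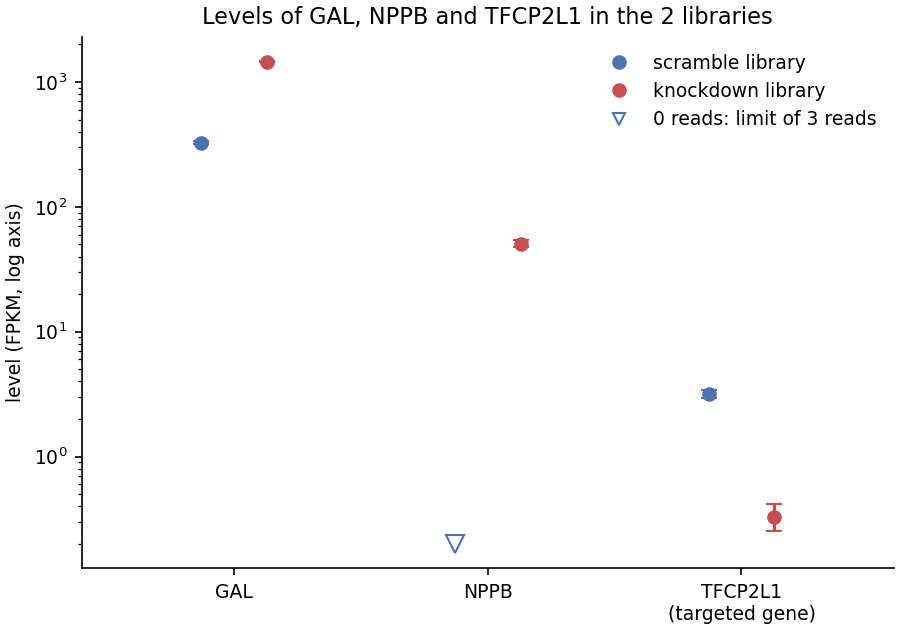
Level of GAL, NPPB and TFCP2L1 (vertical axis, FPKM on a log scale) in the scramble library (blue) and the knockdown library (red); bars are exact 95% Poisson intervals of the inferred reads, and the open triangle is the level that 3 reads would give. GAL is at 327 and 1455 FPKM, NPPB goes from no reads to 50.8 FPKM, and TFCP2L1 is lower in the knockdown library.

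The 2 hormone genes thus reached the knockdown library from different starting levels. GAL was abundant in both libraries, while NPPB was undetected in 1 of them at this depth. Per length, GAL stayed far above NPPB: in the knockdown library its level was 28.6 times that of NPPB (interval 26.6 to 30.8). Even the scramble level of GAL was 6.44 times the knockdown level of NPPB.

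Among the 2005 listed genes GAL had the fourth highest level in the scramble library and ranked 2 in the knockdown library, after IFITM1. By difference in level GAL ranked 1, with 1128 FPKM more in the knockdown library. By log2 ratio, taken with a pseudocount of 0.1 FPKM that understates ratios of genes at low levels, GAL ranked 253 with a value of 2.15. NPPB had the opposite profile. It ranked 66 by knockdown level, 41 by difference in level and 2 by log2 ratio, with a value of 8.85.

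Among abundant listed genes GAL was the one furthest above its scramble level. The scramble library had 17 listed genes at or above 100 FPKM, of which 7 were higher and 10 lower in the knockdown library, with a median log2 ratio of -1.02. GAL had the highest ratio of these 17 at 4.45-fold, and the next was the tubulin gene TUBA1A at 2.32-fold (126.9 and 294 FPKM). The other 5 higher genes were between 2.08-fold (LAPTM4B) and 2.19-fold (TUBB2A) higher. The levels of TUBB2A, IFITM1 and KRT8 are uncertain because their transcripts share sequence with another gene. TAGLN2 and LAPTM4B share smaller parts, and TUBA1A was not checked for this. In the other direction 3 of the 17 were as far from their scramble level: COL1A1, PMAIP1 and TXNIP were 4.51-fold, 4.72-fold and 7.94-fold lower.

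NPPB led the other end of the scale. At the floor in the scramble library were 76 listed genes, of which 20 reached 1 FPKM after knockdown, and NPPB had the highest level of them. The next were the WNT inhibitor gene DKK4 at 26.9 FPKM, the endoderm regulator SOX17 at 26.6 FPKM and the trypsinogen gene PRSS2 at 21.4 FPKM. On reads instead of level per length SOX17 was ahead, with about 1377 reads against 740 of NPPB and 470 of DKK4.

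The genes most like each hormone gene were taken as those with the smallest distance between pairs of log2(FPKM + 0.1) values over the 2 libraries. For NPPB the nearest was FOXA2, an endoderm transcription factor, at 0.05 and 56.5 FPKM and a distance of 0.47. DKK4 (distance 0.91), SOX17 (0.93), GATA6 (0.98) and PRSS2 (1.24) followed. For GAL the nearest were the keratin gene KRT8 (293 and 640 FPKM, distance 1.20) and the interferon-induced gene IFITM1 (850 and 1858 FPKM, distance 1.42). TAGLN2 (1.66), TUBB2A (2.06) and LAPTM4B (2.31) came next. With 2 libraries such a distance describes levels and nothing more. Of the 31-base words of their longest transcripts, TUBB2A shares 69.97%, IFITM1 45.9%, KRT8 35.3% and PRSS2 24.0% with another gene, so the levels of these genes are uncertain. The shares of TAGLN2 (15.2%) and LAPTM4B (10.8%) were smaller.

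**Figure D2:**
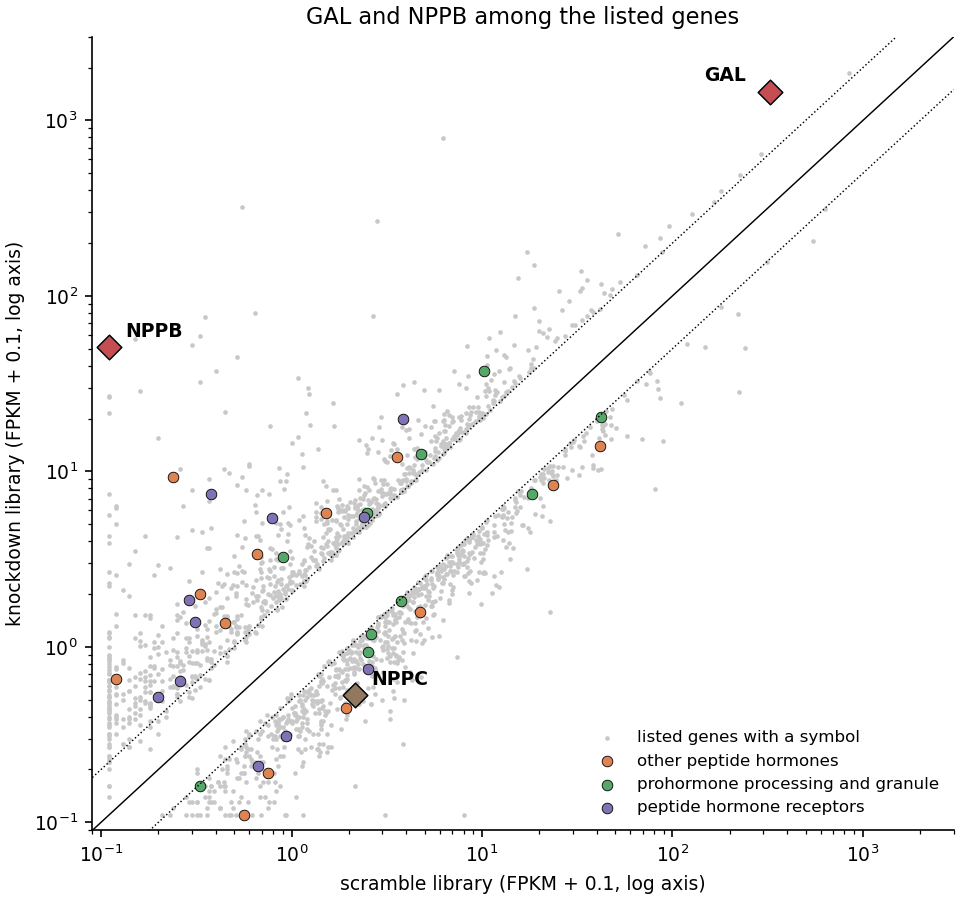
Level of each listed gene with a symbol in the scramble library (horizontal axis) and the knockdown library (vertical axis), as FPKM + 0.1 on log scales; the solid line marks equal levels, dotted lines mark 2-fold, and colours mark GAL, NPPB and NPPC (diamonds) and 3 lists of related genes. GAL lies at the top right and NPPB at the left edge, and the empty band between the dotted lines reflects the limits of the deposited table.

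Only genes past the authors' limits are in the table. By the authors' values all listed genes differed at least 2-fold, and the largest false discovery rate among them was 0.00099. The listed genes are 10.8% of about 18489 genes tested, a number inferred from the p-values. By a rule of size on log2(FPKM + 0.1), the knockdown library was at least 2-fold higher for 50.9% of the listed genes and at least 2-fold lower for 43.7%, and the median log2 ratio was 1.01. Lists of related genes and of cell type markers are read against these shares, and nothing is said of a gene with no row. Of all 269 genes on 7 lists, 50 had a row (18.6%), and by the same rule 27 were higher and 23 lower. None of these counts has a test behind it.

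Of 16 genes of the natriuretic peptide pathway 4 had a row (25.0%): 2 were at least 2-fold higher, NPPB and NPR1, and 2 at least 2-fold lower, NPPC and MME. NPPC, which encodes the C-type peptide, the relative of BNP that acts through the receptor NPR2, had 2.05 FPKM under scramble and 0.43 FPKM under knockdown. On 34 and 7 reads it was 4.70-fold lower (interval 2.05 to 12.6). The ligand genes NPPB and NPPC thus differed in opposite directions. NPR1, the receptor of BNP, was at 2.29 and 5.37 FPKM, a ratio of 2.35 (interval 2.001 to 2.76). MME encodes neprilysin, a membrane protease that degrades natriuretic and other peptides. It was at 5.17 and 1.86 FPKM, 2.77-fold lower (interval 2.39 to 3.23). NPPA, NPR2, NPR3, CORIN and FURIN had no row. The median log2 ratio of the 4 genes was -0.12. With a pseudocount of 1 FPKM 1 gene was at least 2-fold higher and 2 were lower.

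Of 8 genes of the galanin and kisspeptin family, GAL was the 1 with a row. GALP, GALR1, GALR2, GALR3 and SPX had none, so the deposited table shows the galanin ligand and says nothing about its receptors.

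Of 92 other peptide hormone and neuropeptide genes, 13 had a row (14.1%), 7 of them higher and 6 lower, all by at least 2-fold. The median log2 ratio was 1.60, with a range of -2.35 to 5.28, and with a pseudocount of 1 FPKM the median was 0.61. The gene with the highest ratio was SST, which encodes somatostatin, an inhibitor of hormone release. It was at 0.14 FPKM in the scramble library on 2 reads and 9.20 FPKM in the knockdown library on 125 reads, a ratio of 64.6 (interval 17.5 to 540). THPO, the gene of the platelet growth factor thrombopoietin, was at 0.56 and 3.27 FPKM (ratio 5.96, interval 3.88 to 9.51). PTHLH, the gene of parathyroid hormone-related protein, was at 0.02 and 0.56 FPKM, and with 1 scramble read its ratio had an interval of 3.49 to 898. NPFF was at 0.23 and 1.90 FPKM, but 95.0% of its words occur in another gene.

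The lower hormone genes were all at low or moderate levels. GNRH1, which encodes gonadotropin-releasing hormone, was at 0.46 FPKM on 22 scramble reads and had no knockdown reads. Set against a floor of 3 reads it was 7.09-fold lower, and by the limit of the interval at least 5.30-fold lower. EDN1, the gene of the vessel constrictor endothelin, was at 0.65 and 0.09 FPKM (7.49-fold lower, interval 2.65 to 29.2). PROK2, a prokineticin gene, was at 1.84 and 0.35 FPKM, and TAC3, the gene of neurokinin B, was at 4.64 and 1.48 FPKM. APELA was singled out after its value was seen, because it encodes a ligand of the receptor APLNR that human embryonic stem cells secrete. With 41.4 FPKM under scramble and 13.9 FPKM under knockdown it was 2.98-fold lower (interval 2.76 to 3.24).

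None of these genes approached GAL in level. The authors' annotation of the table marks 6 listed genes with hormone activity: GAL, NPPB, NPFF and THPO, which were higher, and NPPC and GNRH1, which were lower. GAL alone held 98.998% of their summed FPKM under scramble and 96.3% under knockdown. The share of NPPB in the knockdown library was 3.36%. These shares are over the 6 annotated genes only, and the annotation leaves out APELA and other hormone genes named above. The 13 other hormone and neuropeptide genes with a row summed to 78.8 FPKM under scramble and 57.8 FPKM under knockdown.

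Peptide hormones are cut from precursors and stored in secretory granules, and of 27 genes with such roles 10 had a row (37.0%). Of these 4 were higher and 6 lower by at least 2-fold, with a median log2 ratio of -1.04 and a range of -1.43 to 1.86. CHGA, the gene of the granule protein chromogranin A, was at 10.2 and 37.2 FPKM (ratio 3.67, interval 3.31 to 4.07). Its relative CHGB was lower, at 2.53 and 1.08 FPKM. The prohormone protease gene PCSK1 was at 0.80 and 3.15 FPKM (ratio 3.96, interval 3.15 to 5.03). CPE, the gene of a carboxypeptidase that trims the cut ends, was at 4.68 and 12.4 FPKM (ratio 2.66, interval 2.31 to 3.06).

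The genes CADPS and CADPS2, which encode related proteins that prime granules for release, differed in opposite directions. CADPS was at 2.38 and 5.72 FPKM, and CADPS2 at 2.43 and 0.84 FPKM. RAB3A, the gene of a small GTPase of secretory vesicles, was at 18.1 and 7.33 FPKM (2.47-fold lower, interval 2.12 to 2.87). CPM, a carboxypeptidase gene, was at 0.23 and 0.06 FPKM. These counts depend on the pseudocount: with 1 FPKM 3 genes of the list were at least 2-fold higher and 2 lower, and the median log2 ratio was -0.49. With the pseudocount of 0.1 FPKM no gene of the list was 4-fold higher or lower.

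Of 86 receptors of peptide hormones 11 had a row (12.8%), 8 higher (NPR1 among them) and 3 lower by at least 2-fold, with a median log2 ratio of 1.38. Raising the pseudocount to 1 FPKM left 4 higher and 1 lower receptor by this rule and a median of 0.91. Without the receptors that stayed under 1 FPKM in both libraries 1 was lower, and the median was 2.36. TACR1, the receptor of substance P, was at 0.28 and 7.32 FPKM, a ratio of 26.4 (interval 18.2 to 39.6). CCKBR, the receptor of gastrin and cholecystokinin, had the highest knockdown level of the list at 19.7 FPKM, from 3.77 FPKM in the scramble library (ratio 5.24, interval 4.48 to 6.16). APLNR was at 0.69 and 5.32 FPKM (ratio 7.72, interval 5.92 to 10.2), while its ligand gene APELA was lower. The bradykinin receptor gene BDKRB2 was at 0.19 and 1.75 FPKM.

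The 3 lower receptors were PROKR2 (2.41 and 0.65 FPKM), GLP1R (0.57 and 0.11 FPKM) and NMUR1 (0.84 and 0.21 FPKM). PROKR2 encodes a receptor of prokineticins, so the ligand gene PROK2 and this receptor gene were both lower. PROKR2 was 3.72-fold lower (interval 2.50 to 5.67) and PROK2 5.24-fold lower (interval 2.80 to 10.7).

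**Figure D3:**
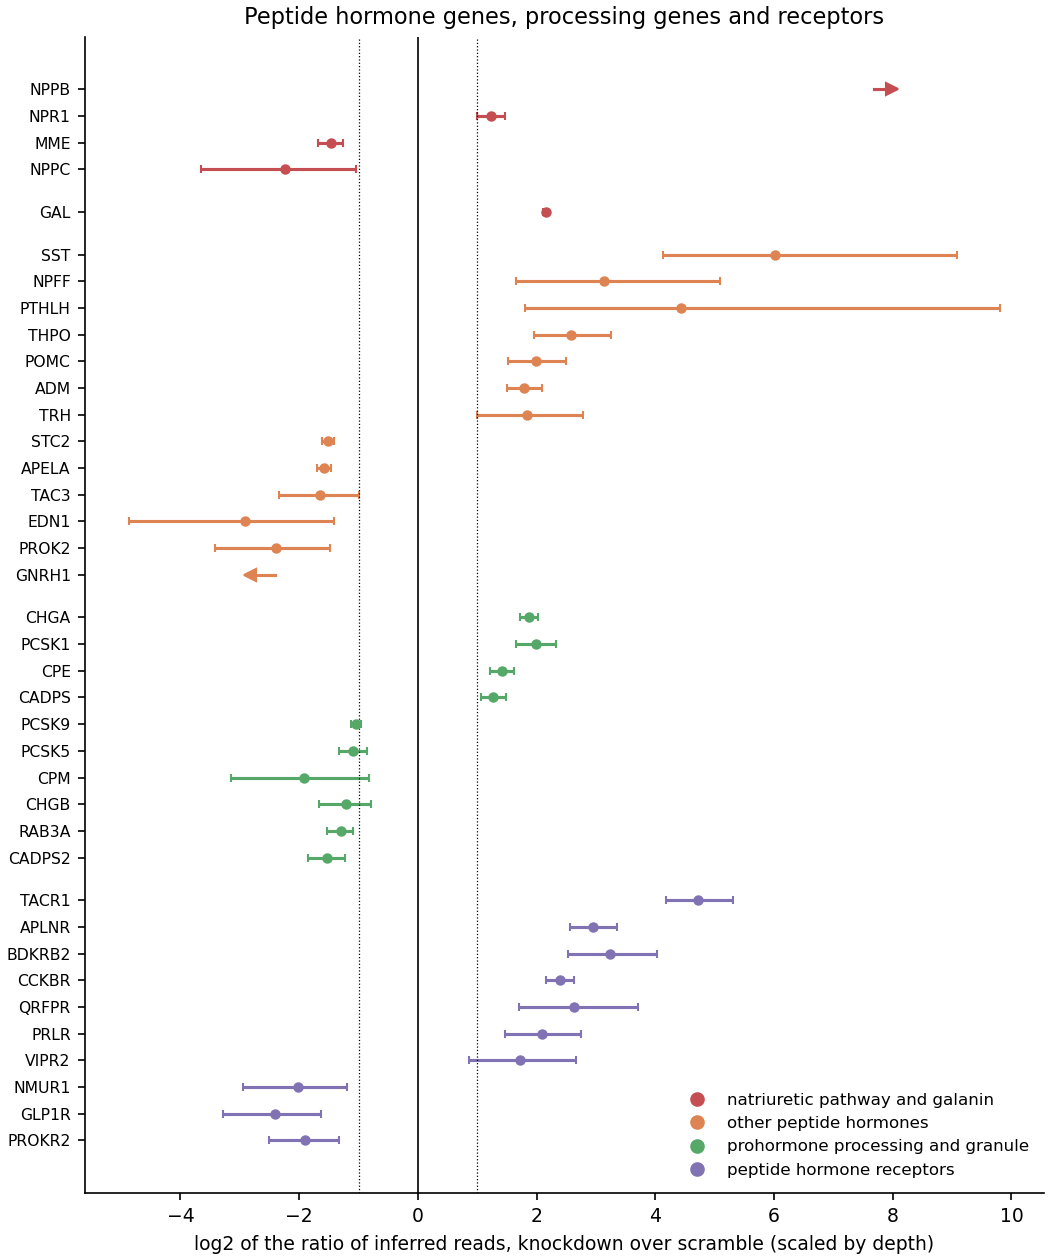
Log2 of the ratio of inferred reads, knockdown over scramble and scaled by depth (horizontal axis), for each listed gene of the natriuretic, galanin, peptide hormone, processing and receptor lists; bars are exact 95% intervals, dotted lines mark 2-fold, and an arrowhead marks the fold against a floor of 3 reads. NPPB stands at the far right, GAL has the narrowest interval, and NPPC, MME and GNRH1 lie on the left.

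NPPB in the heart is known together with a set of cardiac regulators and stretch-response genes. Of 28 such genes 8 had a row (28.6%), 5 higher and 3 lower by at least 2-fold, with a median log2 ratio of 1.42. The higher ones include the zinc finger factors GATA6 (0.06 and 28.7 FPKM) and GATA4 (0.15 and 4.12 FPKM), which are known to bind the NPPB promoter in heart cells and are also endoderm factors. GATA4 had a ratio of 26.9 (interval 14.8 to 54.5). ANKRD1, a gene of the heart's stretch response, was at 0.02 FPKM on 1 scramble read and 6.22 FPKM in the knockdown library. The actin genes ACTA1 (1.39 and 4.89 FPKM) and ACTA2 (1.25 and 2.80 FPKM) were closer to their scramble levels.

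The lower genes of this list were CTGF, CYR61 and EDN1. CTGF, a matricellular protein gene, was at 80.5 and 7.83 FPKM, 10.3-fold lower (interval 9.28 to 11.4), and its relative CYR61 was at 33.4 and 10.5 FPKM. NPPB and ANKRD1 were thus higher in the library in which CTGF and CYR61 were lower. NPPA, NKX2-5, TBX5, MEF2C and MYH7 had no row.

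Markers of other cell types were read beside the 2 genes, since both can come from differentiated cells. Of 8 definitive endoderm markers 8 had a row and all were higher, with a summed level of 8.53 FPKM in scramble and 958 FPKM in knockdown. Of 8 primitive streak markers 7 had a row and all 7 were higher, with sums of 31.6 and 556 FPKM. Among all tested genes 10.8% had a row, and 50.9% of the listed genes were at least 2-fold higher. The lists were chosen with earlier results of these data known, so these counts are description only. CER1 (6.11 and 799 FPKM), FOXA2 and GATA6 were the endoderm markers with the highest levels, and MIXL1 (2.70 and 267 FPKM), EOMES (0.25 and 76.0 FPKM) and NODAL (22.4 and 64.4 FPKM) those of the streak. SOX17 was the 1 endoderm marker with no scramble reads. Their part in the levels of GAL and NPPB was not tested.

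The cardiomyocyte markers with a row differed in both directions. Of 11 such markers 3 had a row: MYL7, a myosin light chain gene of the atrium, at 0.48 and 7.77 FPKM (ratio 16.7, interval 7.84 to 42.5), the calcium channel gene RYR2 at 0.40 and 0.98 FPKM, and the troponin gene TNNT2, which was lower at 2.26 and 0.70 FPKM (3.22-fold, interval 1.88 to 5.80). Their summed levels were 3.14 FPKM (scramble) and 9.45 FPKM (knockdown), over the markers with a row. The 3 neuronal markers with a row of 8 (ELAVL3, MAPT and SYP) were all lower, with sums of 9.72 and 2.23 FPKM. Of 8 endocrine cell markers 4 had a row, with CHGA and PCSK1 higher and CHGB and SYP lower.

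GAL was also read beside other genes that are high in undifferentiated cells. Of 23 such genes, a list that includes GAL itself, 6 had a row (26.1%), and 2 of these, GAL and NODAL, were at least 2-fold higher. The other 4 were at least 2-fold lower: SOX2 (180 and 86.1 FPKM), PODXL (222 and 79.1 FPKM), UTF1 (88.7 and 14.8 FPKM) and TERT (8.39 and 3.09 FPKM). The median log2 ratio was -1.24. Among all tested genes 10.8% had a row, and of the listed genes 50.9% were at least 2-fold higher and 43.7% lower. A split of 2 higher and 4 lower over 6 genes is too small to set against these shares, so it is description only. In the scramble library GAL was 1.47 times as abundant per length as PODXL, and in the knockdown library 18.4 times. POU5F1, NANOG, LIN28A, DNMT3B and TDGF1 had no row, so of the shorter list of 8 markers of undifferentiated cells only SOX2, PODXL and UTF1 can be read here. They were lower, at 86.1, 79.1 and 14.8 FPKM in the knockdown library. NODAL, on the longer list and also on that of the streak markers, was higher at 22.4 and 64.4 FPKM. Genes have a row only if they differed between the libraries, so these markers cannot settle what the cells of either library are.

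**Figure D4:**
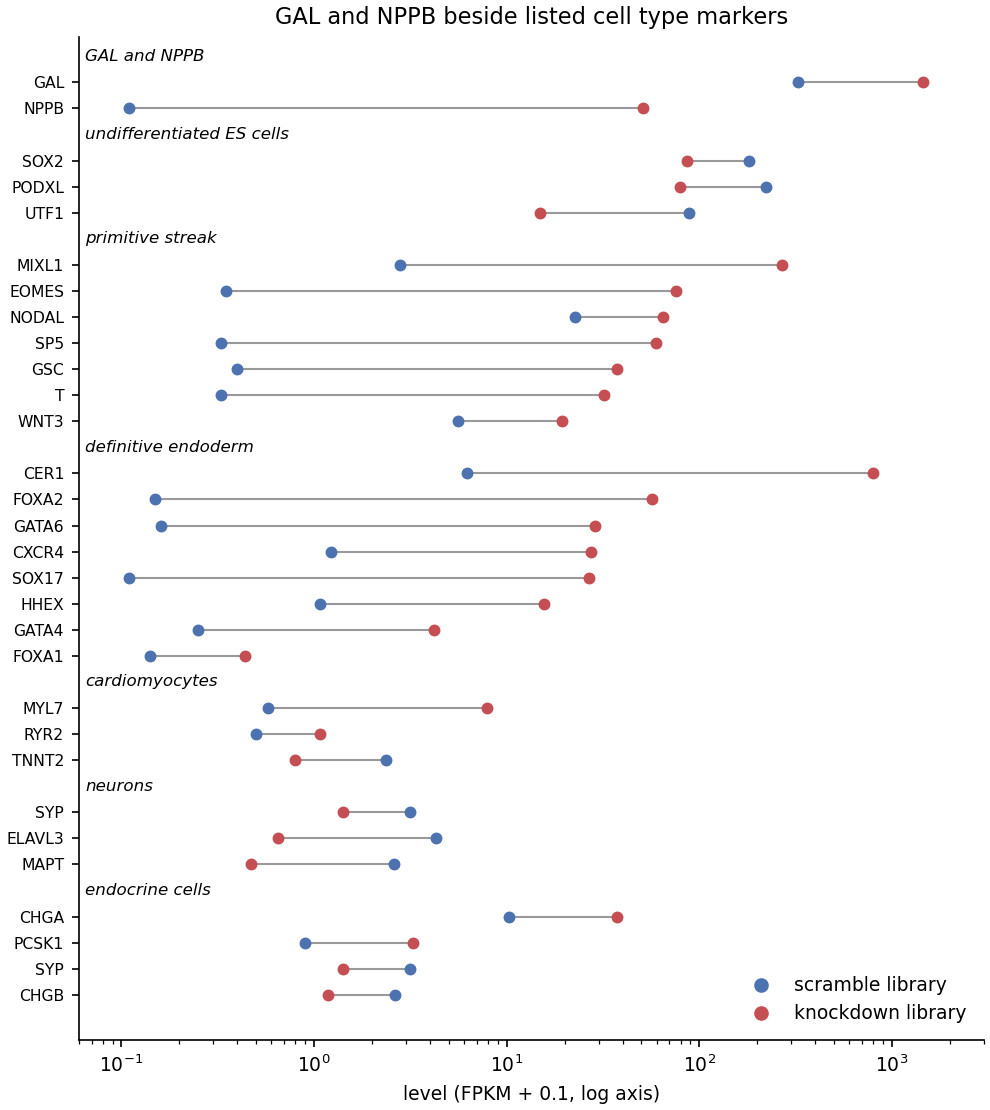
Level (horizontal axis, FPKM + 0.1 on a log scale) of GAL, NPPB and the listed markers of 6 cell types in the scramble library (blue) and the knockdown library (red), joined by a line for each gene. GAL and NPPB shift to the right, and so do the streak and endoderm markers, the cardiomyocyte markers MYL7 and RYR2 and the endocrine markers CHGA and PCSK1. SOX2, PODXL and UTF1 shift to the left, as do the neuronal markers, TNNT2, CHGB and SYP.

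In the order of protein-coding genes along the chromosome (RefSeq, GRCh38.p14), the 5 genes on each side of GAL and of NPPB were looked up. None of the 10 neighbours of GAL had a row. Of the 10 neighbours of NPPB 1 had a row, C1orf167, which was lower at 0.54 and 0.12 FPKM. Both counts are near the 10.8% of all tested genes that had a row, so they show nothing particular to these neighbours. NPPA, a further natriuretic peptide gene and the next in order to NPPB, had no row. The protein-coding transcript of GAL has 6 exons and that of NPPB has 3 in the GENCODE annotation. Of the 31-base words of the longest GAL transcript 0% occur in another gene, and the same holds for NPPB (0%) and NPPC (0%).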

How the data were processed

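RNA of 1 scramble and 1 TFCP2L1 knockdown library (1 ug each, Trizol) went through a BGISEQ-500 sequencer, per the protocols in the labels. The submitters' processing notes name hg19 and Bowtie 0.12.2. How reads were counted, with which test and strand setting, is not given in the sources used here. The authors' deposited table holds a level per library, taken as FPKM from the values (RPKM cannot be told apart), the authors' log2 ratio, a p-value and a false discovery rate, and a length.

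Reads were inferred. The p-values of 68 of 75 genes at the floor of 0.01 FPKM in the scramble library, out of 76 such genes, follow the whole steps of Audic and Claverie's test for a pair of libraries, and put the scramble depth at 1.034 times the knockdown depth. Depth came from 469 genes, with 68 bases taken off each length. The p-value was above 0 for 1926 genes, and 1349 of them (70.0%) had a pair of whole reads that matched both levels and the p-value, within 0.0002 on its natural log or, for very small p-values, the same tolerance scaled with the log. Reads of the others came from level and length. NPPB had exactly 1 pair. GAL is listed with a p-value of 0, so its reads came from its level. The steps were tested on simulated data with known answers, where 100% of p-values above 0 gave a pair and 100% of the pairs were right. The simulated p-values came from the same formula that the steps invert. With 70.0% in the real data, the simulation does not cover the genes without a pair. Without molecular identifiers reads are no count of independent molecules, so intervals and floors cover counting error only.

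The members and the gene lists were chosen with earlier results of these data known. Named are GAL, NPPB, TFCP2L1, each listed gene of the natriuretic and galanin lists, all listed genes of other lists up to 8 and otherwise the 4 highest and 4 lowest, up to 3 markers per cell type, and the 5 nearest genes; APELA and the genes that rank beside GAL and NPPB were named after their values were seen. List genes were matched by gene ID through RefSeq (269 of 269). The promoter motifs and protein features of the plan were not analysed here. Tools were Python 3.11.15, numpy 2.4.6, pandas 2.3.3, scipy 1.17.1 and matplotlib 3.10.9.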

Additional observations from a re-analysis of the deposited data

How the results depend on the processing

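The ratio of GAL was the same within its counting interval with pseudocounts of 0.01 and 1 FPKM and with the ratio of the authors' deposited table. So was the fold of NPPB against the floor of 3 reads when its reads were taken from level and length alone. Relative to the median log2 ratio of listed genes, which were selected for change, it was 1.14 for GAL and 7.84 for NPPB. The log2 ratio of NPPB depends on the pseudocount because its scramble level is at the floor. It was 11.31 with 0.01 FPKM, 5.68 with 1 FPKM and 12.31 in the authors' deposited table. Against a floor of 1 read NPPB was 765-fold higher. By log2 ratio with a pseudocount of 1 FPKM GAL ranked 91 and NPPB 7. Over all lists, 14 genes passed 4-fold upward and 5 downward, and with a pseudocount of 1 FPKM 19 passed 2-fold upward and 15 downward. The log2 ratios of GAL and NPPB and the list medians kept their sign under every alternative run. For a single gene a change of pseudocount cannot alter the sign, because the same 2 levels set it. Counts and ranks were not scored for a reversal. Depth limits what can be said of NPPB in the scramble library to a level below that of about 3 reads. No paired analysis was possible because each group had 1 library, and no replicate could be left out.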
